A study of Mus musculus with 9 samples.

Results

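Proteasome genes were followed across 3 groups of splenic monocytes. The genes were taken by name, as every row of the deposited tables with a symbol from Psma, Psmb, Psmc, Psmd, Psme, Psmf or Psmg followed by a number, and the 4 rows with the -ps ending of a pseudogene were left out. This gave 50 of the 46072 genes in the tables, and 26108 of the 46072 had a value in at least 1 library. No symbol was held back for its level, and 49 of the 50 received an adjusted p in all 3 comparisons. The exception was Psmb11, the thymus-restricted beta subunit, which was at or near 0 throughout. Psmc3ip entered through its name alone, since it encodes a partner of the recombination machinery and not a proteasome subunit. It is among the 49 and stays in the counts of proteasome genes given below.

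The proteasome is the large protease that degrades proteins tagged with ubiquitin. Its barrel-shaped core is built of rings of alpha subunits, which gate the entry, around rings of beta subunits, some of which carry the cutting sites, and a cap recognises, unfolds and feeds in the substrate. Under interferon the catalytic beta subunits are exchanged for those of the immunoproteasome and the PA28 activator is induced, which changes the peptides that are made for presentation on class I molecules. In monocytes and macrophages proteasomes also take part in nuclear factor kappa B signalling, because they degrade its inhibitor.

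Monocytes came from the spleens of female C57BL/6 mice and were isolated by magnetic negative selection, and polyadenylated RNA was sequenced, with 3 libraries in each of 3 groups. All mice were gavaged for 6 days, and the labels give a rest of 6 to 8 days. The study's text names the upper end of that range for the sequenced mice. Con mice were given water, and Van mice were given vancomycin, an antibiotic that stays largely in the intestine when swallowed, in a daily dose of 2 mg for each mouse. VanLip mice were given the same vancomycin and then L654, a lipid of gut bacteria that is sensed through TLR2, by injection behind the eye on days 7, 9 and 11. The labels record no injection in Con and Van mice, while the study's text describes vehicle injections of such control mice in related experiments, so whether the mice sequenced here had them is not clear. If they had none, the lipid and the injection cannot be told apart.

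Summed counts of a library ran from 43070361 to 61383806 in Con and Van and from 170503470 to 184720704 in VanLip, and the commonest low count was 1.33 in the former and 2.00 in the latter, which stands for reads of 100 and 150 bases at the read length that tximport assumes, whereas the labels name 100 bases for the whole series. Depth and read length thus coincided with the VanLip group and cannot be told apart from it. Monocyte markers had the highest sum of the marker lists in every library, with a level of 9674 to 12221 FPKM (sequenced fragments per kilobase of a transcript and relative to all that mapped) over 10 genes. Most of it came from Lyz2, a lysozyme gene that macrophages also express, at group means of 7514 to 8238 FPKM. Red pulp macrophage markers summed to 1410 to 1683 FPKM in Con, 1663 to 2213 in Van and 1394 to 1792 in VanLip, with 1 of 8 genes called higher in Van than in Con and 1 lower in VanLip than in Van. The 8 neutrophil markers summed to 13.4 to 37.1 FPKM over the 9 libraries, with Ly6g at 0 in each, and 1 was called lower in Van and 1 in VanLip than in Con. Of the 8 dendritic cell markers, 3 were called lower in Van and 2 lower in VanLip than in Con, and 2 were called higher in VanLip than in Van. Erythroid markers were higher after vancomycin, with summed levels of 105 to 209 FPKM in Con, 349 to 780 in Van and 285 to 1173 in VanLip, and 5 of 8 erythroid genes were called higher in Van and 7 of 8 in VanLip than in Con. B cell markers summed to 336 to 394 FPKM in Con, 251 to 277 in Van and 258 to 321 in VanLip, mostly from Ighm at a mean of 361 in Con, and 2 of 8 were called lower in Van and 1 in VanLip than in Con. The part of these cells in the values that follow was not tested, and in bulk RNA fewer cells of a type and less RNA per cell cannot be told apart.

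Most core and cap genes had higher levels in Con monocytes than most assembly factors, although the core chaperone Psmg4, at 18.3 FPKM, lay above the cap subunit Psmd12. Mean FPKM in Con, a scale that corrects for transcript length, ranged from 36.5 for Psma5 to 140 for Psma7 in the alpha ring, from 43.7 for Psmb7 to 78.7 for Psmb1 among the constitutive beta subunits, and from 59.0 for Psmb9 to 110 for Psmb8 in the immunoproteasome. The 6 cap ATPases, which unfold the substrate, lay between 26.2 for Psmc2 and 41.2 for Psmc3. The 11 cap subunits without ATPase activity spread more widely, from 15.6 for Psmd12 to 72.2 for Psmd8. The highest level of all 50 genes was that of Psme1, at 174 ± 16.9 FPKM (SD, n = 3), followed by its partner Psme2 at 141 ± 20.9 and by Psma7 at 140 ± 5.28, and these levels of Psme2 and Psma7 differed by less than their spread. At the other end the base chaperones Psmd5 and Psmd9, which help to build the cap, had 4.69 and 5.02 FPKM, the core chaperone Psmg1 had 4.66, and Psma8, the testis-enriched alpha subunit, had 0.711.

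**Figure D1:**
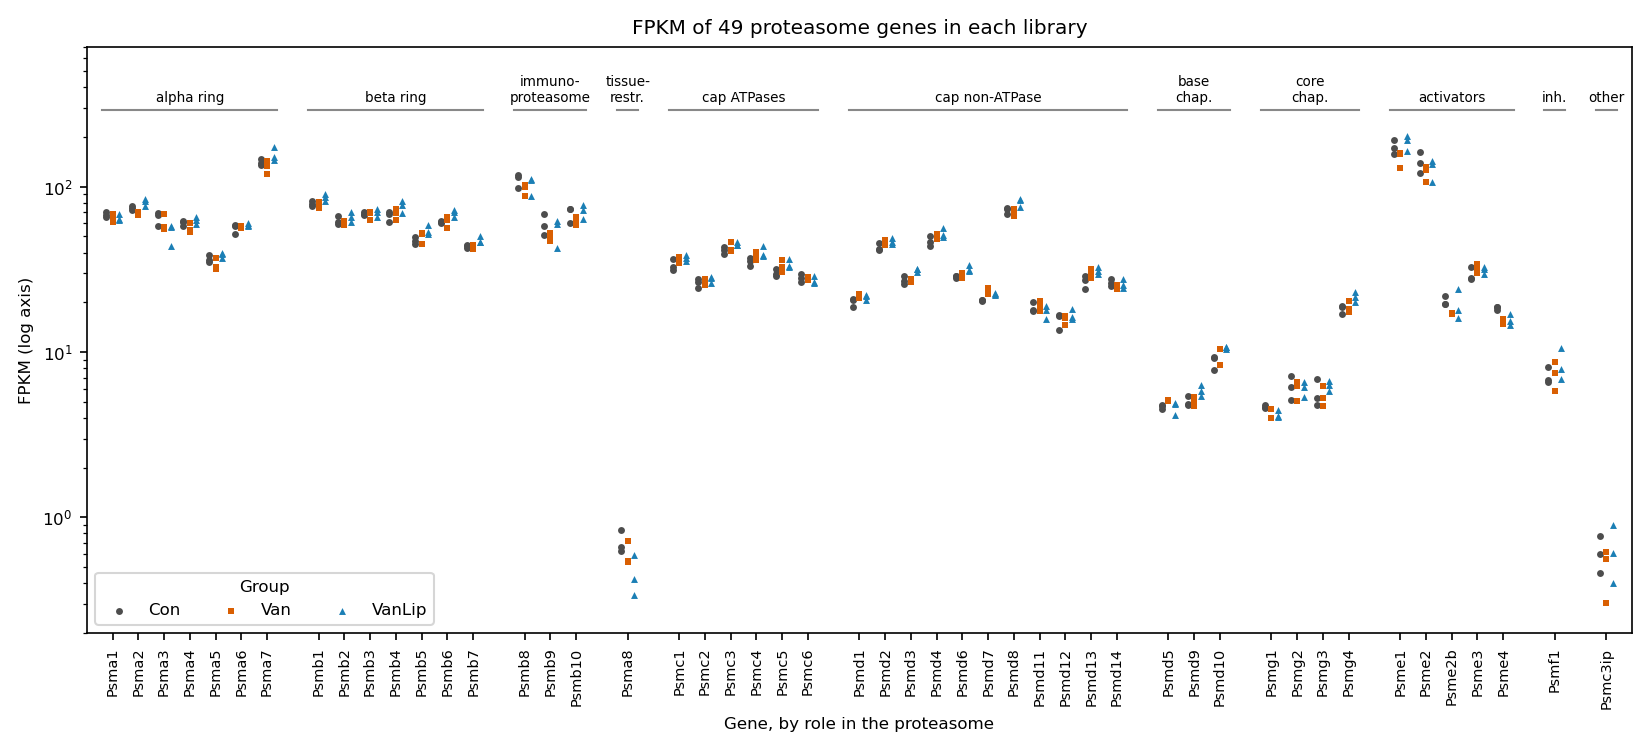
FPKM of 49 genes on a log axis, ordered by role, with 1 point per library and color and shape for the group (Psmb11, at or near 0, is not drawn). Within a gene the 9 libraries lie close together beside the distance between Psme1, at a Con mean of 174 FPKM, and Psma8, at 0.711.

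Among Con libraries the coefficient of variation of the normalized count (the count divided by the size factor of the library) was 2.15% for Psmb7, 3.14% for Psmb6 and 3.48% for Psmb5, the constitutive catalytic subunits. It was 9.72% for Psmb8, 10.5% for Psmb10 and 14.0% for Psmb9, the immunoproteasome subunits that take their places. The PA28 genes had 8.82% for Psme1 and 12.7% for Psme2. In Van the 2 sets of catalytic subunits overlapped in this measure, at 3.40% to 7.48% for the constitutive and 6.61% to 9.89% for the inducible genes, and in VanLip they had 4.20% to 5.95% and 8.83% to 17.1%. The standard errors of the log2 fold changes were 0.10 to 0.14 in the immunoproteasome and 0.06 to 0.09 in the constitutive beta ring.

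The first comparison, Van against Con, asks what remained of the antibiotic course in monocytes after the rest period. A single proteasome gene, Psme4, passed the test and was lower in Van. Calls were made at an adjusted p of 0.05 or under in the Wald test of DESeq2, fitted to all genes, and 4.33% of all genes tested were called in this comparison against 1 of the 49 proteasome genes. At an unadjusted p under 0.05 there were 2 proteasome genes, Psmd7 higher and Psme4 lower, where 11.1% of all genes reached that level. The groups did not overlap for 2 genes in the higher and 5 in the lower direction, or 14.3% of the 49 beside 24.1% of all genes whose normalized count averaged 50 or more. The fitted log2 fold change was above 0 for 21 of the 49, against 48.8% of all genes, and its median was -0.02 beside -0.01 for all genes. Over the 34 core and cap subunits it ran from -0.25 for Psmb9 to 0.17 for Psmd7.

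Psmd7, the partner of the deubiquitinase in the cap lid, had normalized counts of 3207, 3171 and 3060 in Con, 3456, 3488 and 3715 in Van and 3371, 3372 and 3429 in VanLip. The Van libraries all lay above the Con libraries, and so did the VanLip libraries. The log2 fold change of Van against Con was 0.17 ± 0.06 (SE), which did not pass after adjustment (DESeq2 adjusted p = 0.105).

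The second comparison, VanLip against Con, sets the mice with vancomycin and L654 beside the water controls. Again the only call was Psme4, which was lower, or 1 of 49 genes where 6.67% of all genes tested were called. At an unadjusted p under 0.05 there were 7 higher and 2 lower proteasome genes, or 18.4% of the 49 beside 13.0% of all genes. The 7 were Psmb5, Psmb6, Psmc5, Psmd3, Psmd9, Psmd10 and Psmd13, and the 2 were Psma8 and Psme4. The groups did not overlap for 14 genes in the higher and 4 in the lower direction, or 36.7% beside 24.5% of all genes. The fold change was above 0 for 33 of 49 genes, or 67.3% beside 51.5% of all genes, with a median of 0.08 beside 0.01 for all genes.

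The third comparison, VanLip against Van, asks what was different when the lipid was given after the antibiotic. Here 3 proteasome genes were called and all were higher in VanLip, namely Psma2 of the alpha ring and Psmd3 and Psmd8 of the cap. These made up 6.12% of the 49 genes, beside 9.85% of all genes tested. A further 7 genes reached an unadjusted p under 0.05, for a total of 10 higher and 0 lower, or 20.4% beside 15.5% of all genes. The groups did not overlap for 12 higher and 2 lower genes, or 28.6% of the 49, where the share of all genes was also 28.6%. The fold change was above 0 for 41 of 49 genes, or 83.7% beside 51.9% of all genes, with a median of 0.10 beside 0.01. The Van libraries enter both this and the first comparison, and the VanLip libraries both this and the second, so these counts are not independent of each other.

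These calls rested on small differences, and other tools made fewer. The quasi-likelihood test of edgeR called 0 proteasome genes in each of the 3 comparisons, with 2, 11 and 11 genes below 0.05 before adjustment. The limma test on log2 (FPKM + 1) called 0 in the first, 0 in the second and 1, Psma2, in the third, and had 3, 11 and 10 genes below 0.05 before adjustment. In transcript length 41 of the 49 genes were shorter than the median of the 16068 genes compared, and the low counts implied longer reads in VanLip. A trend on length was fitted in each library and removed. The median over the proteasome genes then moved to 0.04 in the comparison of VanLip with Con and to 0.07 in that with Van. The part of transcript length or read length in these values was not tested.

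**Figure D2:**
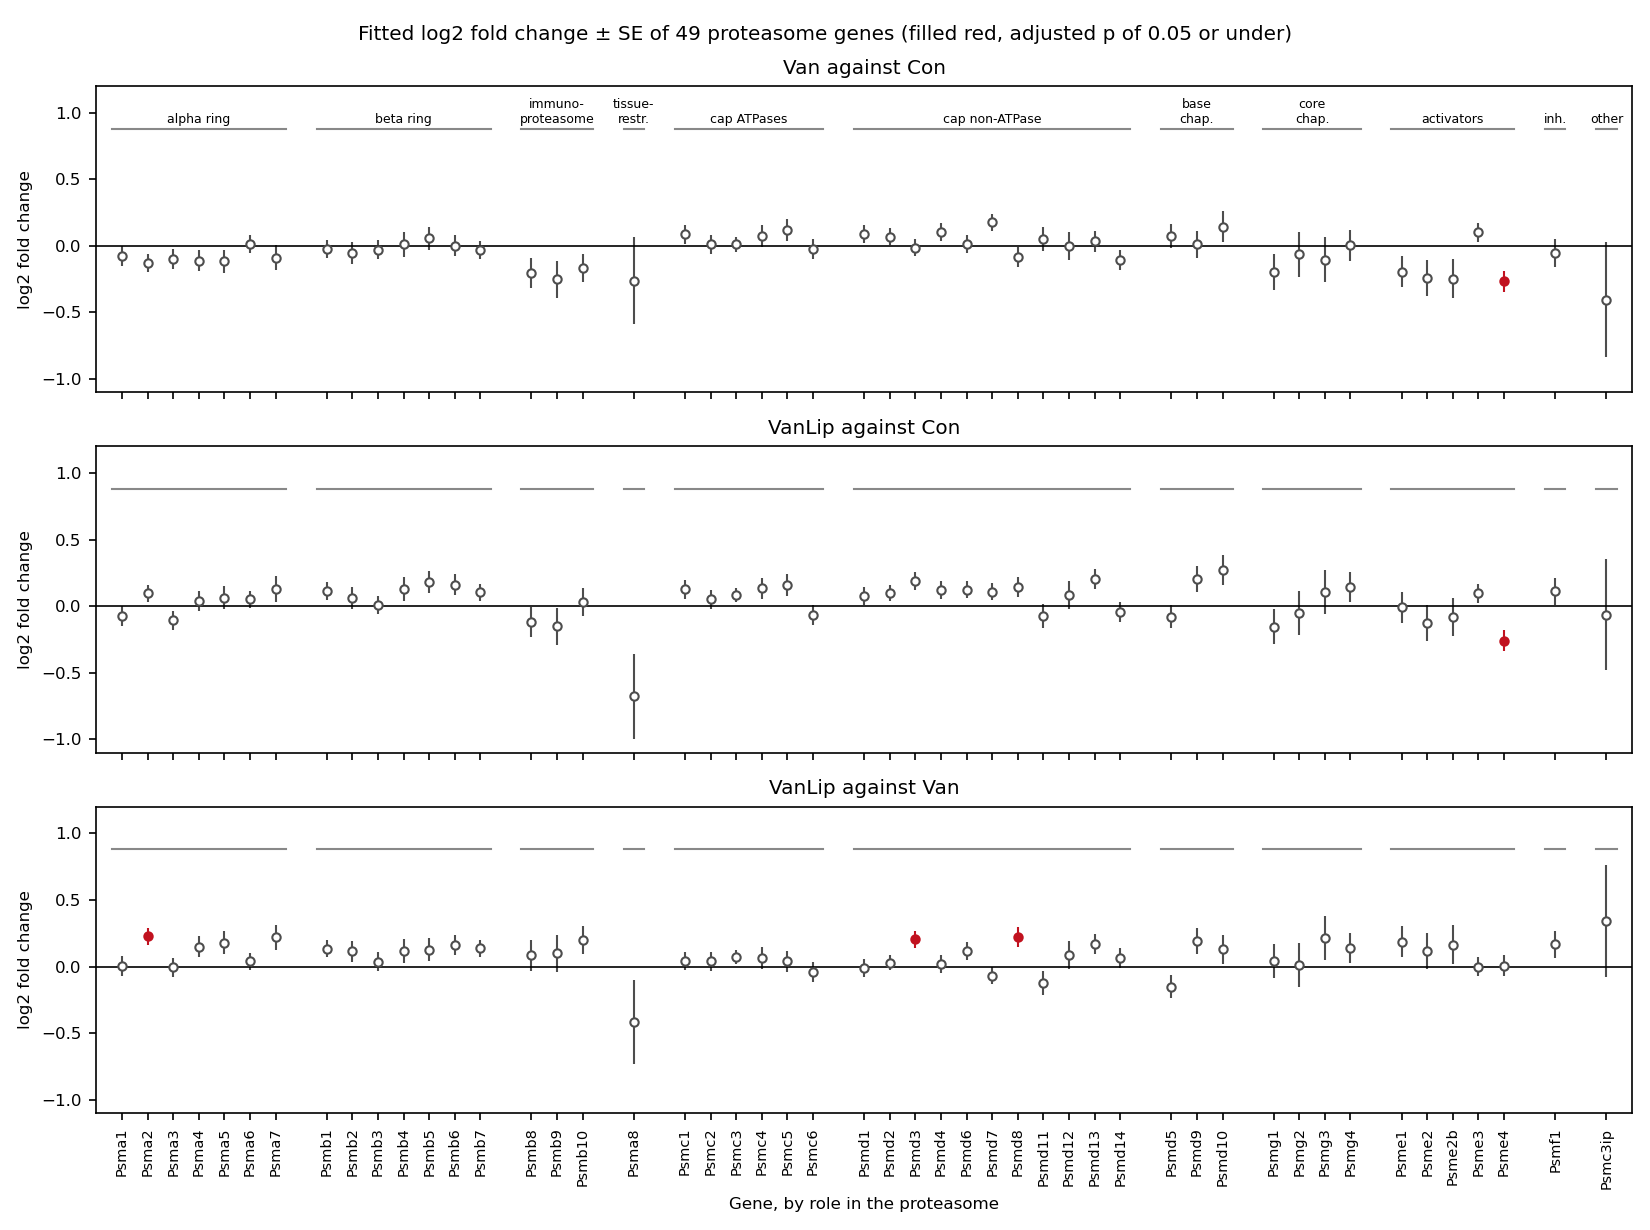
Fitted log2 fold change with its standard error for 49 genes, ordered by role, in a panel for each comparison, with filled red points for an adjusted p of 0.05 or under. Psme4 stands below 0 in the panels against Con, and Psma2, Psmd3 and Psmd8 are the filled points in the panel of VanLip against Van.

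Psme4 (chr11:30771726-30880361, plus strand, GRCm38) encodes PA200, an activator that caps the core without ATPase activity and is known for its part in the breakdown of acetylated histones. Its normalized counts were 10772, 10787 and 10075 in Con, 9027, 8410 and 8881 in Van and 8543, 8242 and 9648 in VanLip. Every vancomycin library, with or without L654, lay below every Con library, and Van and VanLip overlapped. The gene fell by 0.27 ± 0.08 (log2, SE) in Van (DESeq2 adjusted p = 0.0247) and by 0.26 ± 0.08 in VanLip (DESeq2 adjusted p = 0.0215), and VanLip differed from Van by 0.01 ± 0.08 (DESeq2 adjusted p = 0.984). Both differences against Con use the same 3 Con libraries. The call in Van was lost without Con 1, 2 or 3 or Van 2 or 3, with DESeq2 adjusted p from 0.0539 to 0.215 in those fits, and the call in VanLip was lost without Con 1 or 2 or VanLip 1 or 2. With the length trend removed the value in VanLip moved to -0.18 (DESeq2 adjusted p = 0.127), and with the length and GC trend removed to -0.15 (DESeq2 adjusted p = 0.212).

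Psma2 (chr13:14613240-14674236, plus strand), an alpha subunit of the core, was the most clearly different gene between VanLip and Van. Its normalized counts were 7019, 6570 and 6638 in Con, 6125, 6019 and 6344 in Van and 7380, 7445 and 6802 in VanLip. Van was the group that stood apart, below all Con and all VanLip libraries, while Con and VanLip overlapped. Psma2 was higher in VanLip than in Van by 0.23 ± 0.07 on the log2 scale (DESeq2 adjusted p = 0.0104), whereas Van against Con gave -0.13 ± 0.07 (DESeq2 adjusted p = 0.341). It was called under every alternative scaling and by limma, but not by edgeR (adjusted p = 0.0522) and not without Van 1, Van 2, VanLip 1 or VanLip 2, where the DESeq2 adjusted p lay between 0.0761 and 0.107.

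Psmd3 (chr11:98682554-98695979, plus strand), a structural subunit of the cap lid, had normalized counts of 5667, 5361 and 5963 in Con, 5544, 5516 and 5764 in Van and 6644, 6488 and 6245 in VanLip. All VanLip libraries were above all others, and Con and Van overlapped. It rose by 0.20 ± 0.07 (log2, SE) in VanLip against Van (DESeq2 adjusted p = 0.0251), and against Con the value of 0.19 ± 0.07 lay just outside the threshold (DESeq2 adjusted p = 0.0543). An overlapping transcript on the opposite strand, Gm12356, shares exon sequence with it. The call against Van was lost without any 1 of the Van libraries or without VanLip 1 or 2, with DESeq2 adjusted p up to 0.161.

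Psmd8 (chr7:29174188-29180701, minus strand), another lid subunit, had normalized counts of 10219, 9192 and 9721 in Con, 9001, 9630 and 8878 in Van and 11314, 10798 and 10029 in VanLip. The VanLip libraries were above all Van libraries and overlapped with Con. The difference from Van was 0.22 ± 0.08 on the log2 scale (DESeq2 adjusted p = 0.0330). It was lost when the length trend was removed (DESeq2 adjusted p = 0.110), or the length and GC trend (DESeq2 adjusted p = 0.0920), when only the groups compared were fitted (DESeq2 adjusted p = 0.0610), when the VanLip fragments were thinned to the depth of the other groups (DESeq2 adjusted p = 0.0961), and without Con 3, Van 1, Van 3, VanLip 1 or VanLip 2.

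**Figure D3:**
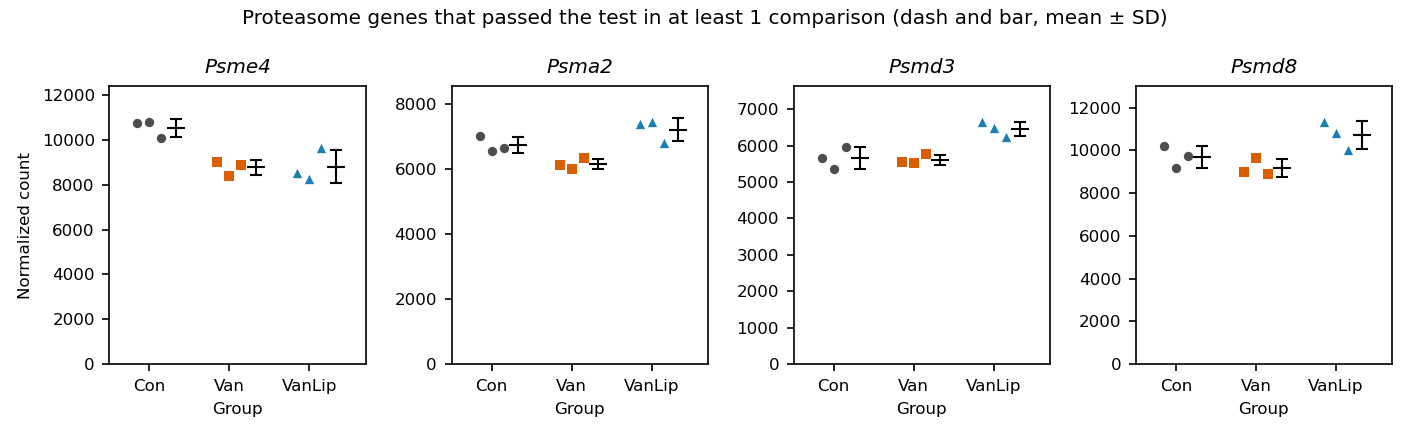
Normalized count of Psme4, Psma2, Psmd3 and Psmd8 in each library by group, on axes that start at 0, with the group mean ± SD beside the points. Psme4 is highest in Con, where its 3 libraries lie between 10075 and 10787, and Psmd3 is highest in VanLip, between 6245 and 6644.

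The alpha subunits other than Psma2 were not called. In Van against Con 6 of the 7 had a fold change under 0, where 48.8% of all genes were above 0, and none was called. The range was -0.13 for Psma2 to 0.01 for Psma6, with no gene at an unadjusted p under 0.05, beside 11.1% of all genes. In VanLip against Van 6 of 7 were above 0, beside 51.9% of all genes. Psma5 and Psma7 reached an unadjusted p under 0.05 in addition to Psma2, as did 15.5% of all genes. Psma7, the most abundant of them, had 15216 normalized counts in VanLip 1 and 10702 to 13021 in the other 8 libraries, and its difference between VanLip and Van was 0.22 ± 0.10 (DESeq2 adjusted p = 0.136). The summed level of the ring was 492 to 509 FPKM in Con, 450.0 to 506 in Van and 503 to 524 in VanLip.

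The constitutive beta ring had fold changes above 0 for 7 of 7 genes in VanLip against Con and for 7 of 7 in VanLip against Van, beside 51.5% and 51.9% of all genes, and none was called in either. Medians were 0.11 and 0.13 on the log2 scale, and 2 genes in the former and 3 in the latter reached an unadjusted p under 0.05, as did 13.0% and 15.5% of all genes. In Van against Con 3 of the 7 were above 0, and the values lay between -0.06 for Psmb2 and 0.06 for Psmb5. The summed level was 424 to 436 FPKM in Con, 403 to 446 in Van and 446 to 497 in VanLip.

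Within this ring the catalytic subunits were examined library by library. Psmb5, which carries the chymotrypsin-like site, had normalized counts of 3976, 3805 and 4077 in Con, 3761, 4213 and 4348 in Van and 4423, 4779 and 4256 in VanLip. Psmb6, of the caspase-like site, had 4751, 4810 and 4530 in Con, 4345, 4933 and 4825 in Van and 5397, 5430 and 4936 in VanLip. Psmb7, of the trypsin-like site, had 4969, 4782 and 4795 in Con, 4661, 4633 and 4925 in Van and 5133, 5466 and 5053 in VanLip. For all 3 the VanLip libraries lay above every Con library, and for Psmb6 and Psmb7 above every Van library too. Psmb1, which is not catalytic, also had its VanLip libraries, at 8035 to 8735, above its Van libraries, at 7416 to 8019. The other 4 genes of the ring overlapped with Con. Against Con 3 of 7 genes, Psmb5, Psmb6 and Psmb7, were without overlap, beside 24.5% of all genes. Against Van 3 of 7, Psmb1, Psmb6 and Psmb7, were without overlap, beside 28.6% of all genes. The fold changes against Con were 0.18 ± 0.08 for Psmb5, 0.16 ± 0.08 for Psmb6 and 0.11 ± 0.06 for Psmb7, and DESeq2 adjusted p was 0.195, 0.231 and 0.385. Psmb5 overlaps the small RNA gene Mir686 on the same strand and Psmb7 overlaps Nek6 on the opposite one.

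The immunoproteasome subunits and PA28 were not called in any comparison, and no gene of the 5 reached an unadjusted p under 0.05. The group with the highest mean was Con for 4 of these 5 genes in normalized counts and for 3 of 5 in FPKM, where Psme1 was highest in VanLip. Psmb8, the counterpart of Psmb5, had normalized counts of 18727, 15485 and 17937 in Con, 16250, 13407 and 15616 in Van and 13924, 17012 and 17044 in VanLip. Psmb9, the counterpart of Psmb6, had 9445, 7173 and 8021 in Con, 7267, 6288 and 7116 in Van and 5937, 8202 and 8032 in VanLip. Psmb10, the counterpart of Psmb7, had 8965, 7360 and 8782 in Con, 7974, 6993 and 7398 in Van and 7750, 9250 and 8656 in VanLip. The groups overlapped for all 3. Van against Con gave -0.20 ± 0.11 for Psmb8, -0.25 ± 0.14 for Psmb9 and -0.17 ± 0.10 for Psmb10, with DESeq2 adjusted p between 0.398 and 0.490. Without Van 2 these values were -0.12, -0.19 and -0.12, and without Con 1 they were -0.15, -0.14 and -0.11.

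The PA28 genes, whose products form a ring that opens the core to peptides, had their lowest counts in the same libraries as the inducible beta subunits. Psme1 had normalized counts of 17919, 15555 and 18404 in Con, 16149, 12909 and 16231 in Van and 15167, 17986 and 18382 in VanLip. Psme2 had 13154, 10188 and 11907 in Con, 10510, 8617 and 10718 in Van and 8982, 11392 and 11944 in VanLip. In all 5 genes the lowest library of its group was Con 2, Van 2 and VanLip 1. Van against Con gave -0.20 ± 0.12 for Psme1 and -0.24 ± 0.14 for Psme2 (DESeq2 adjusted p = 0.458 and 0.415), which moved to -0.09 and -0.15 without Van 2 and to -0.17 and -0.15 without Con 1, and VanLip against Con gave -0.01 ± 0.12 and -0.13 ± 0.14 (DESeq2 adjusted p = 0.980 and 0.698). Psme2b, a near-identical copy of Psme2, had 1264 to 1895 normalized counts, and reads may have been divided between the copies.

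**Figure D4:**
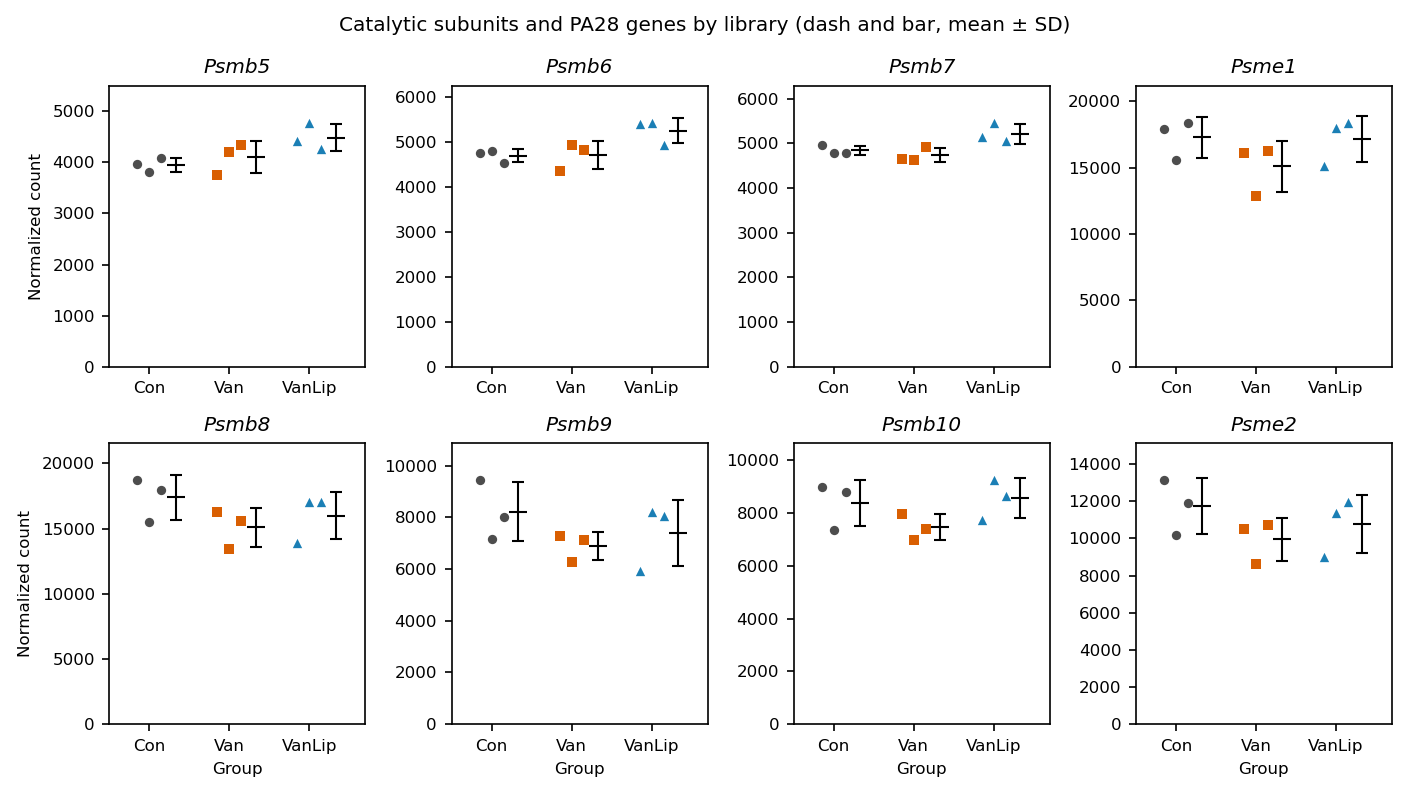
Normalized counts per library of the constitutive catalytic subunits, of their immunoproteasome counterparts below them, and of the PA28 genes Psme1 and Psme2, with group mean ± SD and axes from 0. The 3 upper left panels have their highest means in VanLip, and in the panels of Psmb8, Psmb9, Psmb10, Psme1 and Psme2 the lowest points of the groups are Con 2, Van 2 and VanLip 1.

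Of the 10 monocyte markers, 6 had a lower mean FPKM in Van than in Con and 4, namely Csf1r, Nr4a1, Cd14 and Treml4, a higher one. A single marker was called lower in Van against Con and 3 were called higher in VanLip against Van. Ccr2, the chemokine receptor of the Ly6C-high monocytes, was chosen from them after its values were seen. It had 159 to 173 FPKM in Con, 70.4 to 98.2 in Van and 156 to 256 in VanLip, and it fell by 0.83 ± 0.18 (log2, SE) in Van against Con (DESeq2 adjusted p = 0.000480) and was higher by 1.04 ± 0.18 in VanLip than in Van (DESeq2 adjusted p = 7.38e-07). The part of monocyte subsets in the values of the proteasome genes was not tested.

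The balance between both sets of catalytic subunits was read from ratios of FPKM within each library, which do not depend on library scaling. For Psmb8 to Psmb5 the ratio was 2.49, 2.16 and 2.32 in Con, 2.30, 1.69 and 1.91 in Van and 1.66, 1.89 and 2.12 in VanLip. The VanLip ratios were all below the Con ratios, and the log2 ratio differed by -0.30 (exact permutation test, two-sided, p = 0.1, the smallest p that 3 against 3 allows). For Psmb9 to Psmb6 the mean ratio of the 3 libraries and its SD were 0.964 ± 0.149 for Con, 0.821 ± 0.112 for Van and 0.788 ± 0.162 for VanLip, and the groups overlapped. For Psmb10 to Psmb7 they were 1.57 ± 0.15, 1.44 ± 0.11 and 1.49 ± 0.10, again with overlap. Over the 9 tests of ratios the exact p adjusted by the Benjamini-Hochberg method lay between 0.45 and 0.8, and no exact permutation test of 3 libraries against 3 could pass 0.05.

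**Figure D5:**
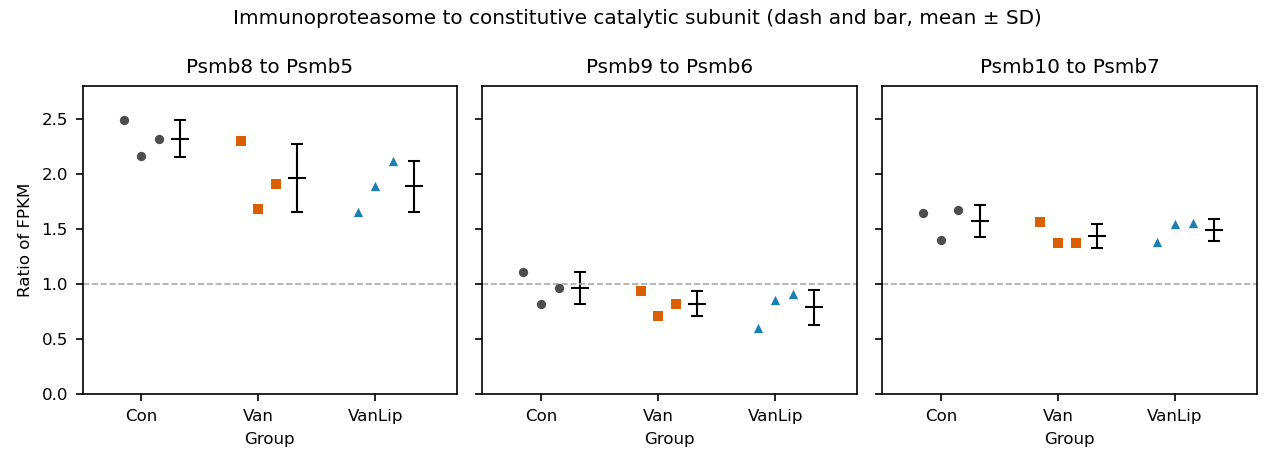
Ratio of the FPKM of each immunoproteasome subunit to that of its constitutive counterpart in each library, with group mean ± SD, axis from 0 and a dashed line at equal levels. Psmb8 exceeds Psmb5 in all 9 libraries, with ratios from 1.66 to 2.49, while Psmb9 lies near or below Psmb6.

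The promoter windows of 5 genes with different roles are shown so that they can be compared. They are RefSeq windows on GRCm38.p6, 250 bases before to 50 bases after a start site, written 5′ to 3′ on the strand of the gene, with capitals for letters that match 1 of 4 motifs searched on both strands. Psmb8 (chr17:34197945-34198244, plus strand) and Psmb9 (chr17:34187281-34187580, minus strand) stand for the immunoproteasome, Psme1 (chr14:55578244-55578543, plus strand) for PA28, Psmb5 (chr14:54617946-54618245, minus strand) for the constitutive core and Psme4 (chr11:30771525-30771824, plus strand) for the called activator.
Psmb8: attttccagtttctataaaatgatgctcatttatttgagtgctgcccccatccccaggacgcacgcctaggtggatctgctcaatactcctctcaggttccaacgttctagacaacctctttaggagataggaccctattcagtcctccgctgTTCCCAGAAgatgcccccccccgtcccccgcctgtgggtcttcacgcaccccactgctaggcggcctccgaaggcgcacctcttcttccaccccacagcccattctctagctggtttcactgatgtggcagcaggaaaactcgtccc
Psmb9: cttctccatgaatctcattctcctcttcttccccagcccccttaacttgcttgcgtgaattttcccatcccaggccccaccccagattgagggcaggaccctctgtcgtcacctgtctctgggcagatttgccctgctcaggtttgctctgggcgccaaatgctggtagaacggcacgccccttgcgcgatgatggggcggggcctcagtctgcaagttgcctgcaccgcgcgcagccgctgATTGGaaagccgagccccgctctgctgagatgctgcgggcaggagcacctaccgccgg
Psme1: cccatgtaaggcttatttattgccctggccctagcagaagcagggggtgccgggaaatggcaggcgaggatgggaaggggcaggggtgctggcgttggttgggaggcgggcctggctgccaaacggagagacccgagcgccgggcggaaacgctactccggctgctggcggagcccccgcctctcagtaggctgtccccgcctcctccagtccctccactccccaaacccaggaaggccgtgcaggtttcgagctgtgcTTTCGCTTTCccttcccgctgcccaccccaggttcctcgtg
Psmb5: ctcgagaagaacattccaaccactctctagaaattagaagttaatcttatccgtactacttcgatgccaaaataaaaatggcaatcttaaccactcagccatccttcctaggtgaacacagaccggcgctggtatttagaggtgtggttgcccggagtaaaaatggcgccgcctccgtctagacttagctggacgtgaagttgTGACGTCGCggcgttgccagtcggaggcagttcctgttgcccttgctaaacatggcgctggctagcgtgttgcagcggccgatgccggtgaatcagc
Psme4: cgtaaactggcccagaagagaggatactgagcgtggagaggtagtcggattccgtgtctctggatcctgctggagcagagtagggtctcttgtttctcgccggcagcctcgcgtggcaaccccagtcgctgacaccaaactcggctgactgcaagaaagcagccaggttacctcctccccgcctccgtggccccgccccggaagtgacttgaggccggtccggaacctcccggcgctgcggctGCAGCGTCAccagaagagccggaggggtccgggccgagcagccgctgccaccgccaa
The motifs were GAAANNGAAA, an interferon-stimulated response element, TTCNNNGAA, a STAT site, TGACNNNGC, an antioxidant response element of the kind bound by the Nfe2l1 factor that drives constitutive proteasome genes, and CCAAT. The capitals in Psmb8 are a TTCNNNGAA match 97 bases upstream of the start, those in Psme1 a GAAANNGAAA match on the reverse strand beginning 9 bases downstream, those in Psmb5 a TGACNNNGC match 47 bases upstream, those in Psme4 a TGACNNNGC match on the reverse strand 7 bases upstream, and those in Psmb9 a CCAAT match on the reverse strand 8 bases upstream.

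Motif shares were close to those of all promoters for most motifs. A window was found for 42 of the 50 genes, 45 windows in all, and none for Psma8, Psmb1, Psmb2, Psmb7, Psmc3, Psmd3, Psmd7 and Psmg2. GAAANNGAAA was in 5 of the 45 windows, those of Psmb3, Psmd4, Psmd9, Psme1 and Psmg4, or 11.1% beside 3.44% of 32851 windows genome-wide. TTCNNNGAA was in 3, or 6.67% beside 8.30%, TGACNNNGC in 6, or 13.3% beside 12.4%, and CCAAT in 15, or 33.3% beside 37.4%. Of the genes with TGACNNNGC, namely Psmb5, Psmb6, Psmc6, Psmd9, Psmd12 and Psme4, only Psme4 was called. The windows of Psmb9 and of Tap1, the peptide transporter gene that runs away from it, share 275 of their 300 bases, and exons of these genes overlap on opposite strands.

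Of the cap genes, only Psmd3 and Psmd8 were called, both in VanLip against Van, where 9.85% of all genes were called. Among the 6 ATPases, 5 were above 0 in each of the 3 comparisons, where 48.8%, 51.5% and 51.9% of all genes were, and none was called, with medians of 0.04 in Van against Con, 0.11 in VanLip against Con and 0.04 in VanLip against Van, and Psmc5 against Con was the only one at an unadjusted p under 0.05. Among the 11 subunits without ATPase activity, 7, 9 and 8 were above 0 in the respective comparisons. Their summed level was 336 to 357 FPKM in Con, 346 to 362 in Van and 372 to 388 in VanLip. Psmd13, a lid subunit, had 4212 to 4615 normalized counts in Con and 4943 to 5379 in VanLip, a difference of 0.20 ± 0.08 (DESeq2 adjusted p = 0.0853), and it was called with TMM library sizes. Psmd14, the deubiquitinase of the lid, ranged from 3458 to 3930 over all 9 libraries, and Psmd2, a large scaffold subunit of the cap base with the highest counts of the cap, from 11715 to 13411.

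Assembly chaperones and the inhibitor were not called. Psmd10, the chaperone also known as gankyrin, had 1070, 1258 and 1249 normalized counts in Con, 1146, 1389 and 1417 in Van and 1430, 1437 and 1451 in VanLip, with VanLip above all other libraries. Its difference from Con, 0.27 ± 0.11, was the highest fitted value of the 49 genes in that comparison (DESeq2 adjusted p = 0.139). Of the 4 core chaperones, Psmg1 was below Con in all 6 other libraries, with 434 to 466 normalized counts in Con, 366 to 432 in Van and 389 to 424 in VanLip (DESeq2 adjusted p = 0.566 for Van and 0.582 for VanLip). Psmf1, which encodes the inhibitor PI31, had 1961 to 2549 normalized counts, and its groups overlapped in both comparisons with Con. The VanLip libraries, at 2257 to 2549, lay above the Van libraries, at 2013 to 2222, a difference of 0.17 ± 0.10 (DESeq2 adjusted p = 0.352).

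Lists of genes that work with the proteasome but do not carry a Psm symbol were read beside the shares of all genes called, 4.33%, 6.67% and 9.85% in the 3 comparisons. At an unadjusted p under 0.05 there were 1 higher and 0 lower of 8 partner genes in Van against Con, 2 and 2 in VanLip against Con, and 2 and 1 in VanLip against Van. The shares of all genes at that level were 11.1%, 13.0% and 15.5%. None of the 8 was called in Van against Con, and 1 of 8 was called in each of the other comparisons. This was Shfm1, the small lid subunit Sem1, which was higher in VanLip than in Con by 0.29 (DESeq2 adjusted p = 0.0304) and than in Van by 0.29 (DESeq2 adjusted p = 0.0231). The other 7 included Pomp, the maturation factor of the core, at 0.24 and 0.23 (DESeq2 adjusted p = 0.118 and 0.103), and Akirin2, which takes part in the nuclear import of proteasomes, at -0.20 and -0.14 (DESeq2 adjusted p = 0.103 and 0.305). In VanLip against Van 5 of the 8 were below 0, with a median of -0.07, where 51.9% of all genes were above 0. Among 16 genes of ubiquitin supply, shuttling and the Nfe2l1 pathway, 0 were called in Van against Con, 1 in VanLip against Con and 2 in VanLip against Van. Ubqln1, a shuttle for ubiquitinated proteins, fell by 0.18 in VanLip against Van (DESeq2 adjusted p = 0.0343). At an unadjusted p under 0.05 the 16 genes had 3 higher and 0 lower in Van against Con, 3 and 2 in VanLip against Con, and 2 and 4 in VanLip against Van. Nfe2l1 itself had values of 0.12, 0.19 and 0.06 in the 3 comparisons and was not called. Neither edgeR nor limma called a gene of these 2 lists in any comparison.

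Genes downstream and upstream of the immunoproteasome were read beside the same shares. In the class I antigen processing list, 8 of 11 genes were below 0 in Van against Con and 8 of 11 in VanLip against Con. Of all genes 48.8% and 51.5% were above 0. Medians were -0.10 and -0.08, beside -0.01 and 0.01 for all genes, and both comparisons use the same Con libraries. At an unadjusted p under 0.05 there were 1 higher and 2 lower in Van against Con, 0 and 1 in VanLip against Con, and 0 and 1 in VanLip against Van. The shares of all genes at that level were 11.1%, 13.0% and 15.5%. The 1 call was Nlrc5, the class I transactivator, which fell by 0.53 in VanLip against Con (DESeq2 adjusted p = 0.0422). Tap1 had -0.34 in Van and -0.25 in VanLip against Con (DESeq2 adjusted p = 0.252 and 0.404). Its normalized counts were 30097, 20549 and 22301 in Con, 16767 to 22165 in Van and 17142 to 22288 in VanLip, with the highest in Con 1. Among 7 interferon signalling factors, 0 were called in Van against Con, 2 of 7 in VanLip against Con and 1 of 7 in VanLip against Van. At an unadjusted p under 0.05 they had 0 higher and 1 lower, 2 and 2, and 1 and 0 in these comparisons, beside 11.1%, 13.0% and 15.5% of all genes. In VanLip against Con Stat2 fell by 0.49 (DESeq2 adjusted p = 0.00544) and Ifngr1, a chain of the interferon gamma receptor, was higher by 0.19 (DESeq2 adjusted p = 0.0114), and Irf8, a factor of monocyte development, was higher in VanLip than in Van by 0.42 (DESeq2 adjusted p = 0.000604). Irf1 had -0.34 in Van and -0.38 in VanLip against Con and was not called. Its normalized counts were 42348, 22900 and 24694 in Con, 21814 to 27324 in Van and 21514 to 24299 in VanLip, so Con 1 stood far above all other libraries. In these 2 lists edgeR called 1 gene, in VanLip against Van, and limma 0.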

How the data were processed

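RNA was sequenced from 9 libraries of splenic monocytes. Titles placed 3 of them in each group (Con, Van, VanLip), and the study's methods give 3 mice for each group. By the submitters' notes and the labels, the authors mapped paired-end reads to GRCm38 with HISAT2 (v2.2.1) and SAMtools (v1.9) and deposited FPKM values per gene, computed with StringTie (v2.1.3). The authors also deposited expected counts, derived from the FPKM output with tximport (v1.26.1). The annotation release was not given in the sources used here. Library preparation was stranded; whether strand was used in the estimates was not stated, and 15 of the 50 genes share exon sequence with another gene, 4 of them on the same strand.

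After rounding of the expected counts, genes were tested in R (v4.3.3) with the DESeq2 (v1.42.0) Wald test, which is also the test the authors used, with all 9 libraries and group as the only term. P-values are two-sided and were adjusted by the Benjamini-Hochberg method over all genes, and a gene was called at 0.05 or under. Normalized counts are counts divided by median-of-ratios size factors. Alternatives used edgeR (v4.0.16), limma (v3.58.1), other scalings and filters, and left out each library in turn. Removal of a trend on length and GC content together was chosen after seeing the data. Gene positions came from GENCODE release M21 and promoters from RefSeq.

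Where a symbol had several rows, the row with the highest mean FPKM was kept. Named with values in every library were the genes called in any comparison, the 6 catalytic subunits, Psme1 and Psme2; other members named with values, and Ccr2, were picked after their values were seen. The genes, lists and tests were chosen with earlier results of these data known. Some members of the related gene lists are not reported here. Replicate numbers shared between groups were checked for pairing, and deviations of same-numbered libraries correlated at -0.12 to 0.09, so that the numbers were not treated as pairs.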

Additional observations from a re-analysis of the deposited data

How the results depend on the processing

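The number of proteasome genes called was 1 in Van against Con, 1 in VanLip against Con and 3 in VanLip against Van. With edgeR it was 0, 0 and 0, and with limma, for pseudocounts of 1 and 0.1 and for genes with a mean FPKM of at least 1, it was 0, 0 and 1. With the replicate block it was 0, 0 and 0, although the numbers share only a name. In VanLip against Con it was 2 with TMM library sizes (Psmd3 and Psmd13, both higher, and Psme4 no longer called), 2 with a minimum of 10 counts in 3 libraries, 0 with only the groups compared, and 0 with the length trend, or the length and GC trend chosen after seeing the data, removed. Leaving out each library in turn gave 0 to 1, 0 to 2 and 0 to 3 called genes in the 3 comparisons. In Van against Con the count was 0 without Con 1, 2 or 3, Van 2 or Van 3. In VanLip against Con it was 0 without Con 1, Con 2, VanLip 1 or VanLip 2 and 2 without Con 3. In VanLip against Van it was 0 without Van 1, VanLip 1 or VanLip 2 and 1, Psmd8, without Van 2. It was 2 without Con 3, where Psmd8 was lost, and 2 without Van 3, where Psma2 and Psma5 were called and Psmd3 and Psmd8 were not. The cause of these changes was not tested.

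The alternatives were run for 12 single genes and 3 ratios, and the signs that turned among these are given here. In Van against Con, Psmb6 (0.00042) went to -0.00096 with counts as fragments and to -0.010 with limma (-0.011 with a pseudocount of 0.1), Psmb7 (-0.033) went to 0.020 with the length and GC trend removed, and leaving out 1 library gave -0.034 to 0.055 for Psmb6 and -0.052 to 0.025 for Psmd3. In VanLip against Con, Psmb10 (0.032) went to -0.017 and -0.056 with the length, and the length and GC, trend removed and Psme1 (-0.0095) to 0.016 with TMM and 0.069 with limma (0.070 with a pseudocount of 0.1), and leaving out 1 library gave -0.052 to 0.097 for Psmb10 and -0.079 to 0.072 for Psme1. In VanLip against Van, leaving out 1 library gave -0.065 to 0.052 for Psme4, -0.16 to 0.067 for the log2 ratio of Psmb8 to Psmb5 and -0.18 to 0.11 for that of Psmb9 to Psmb6. The median fold change over the 49 genes kept its sign in every alternative, at -0.056 to -0.0047, 0.042 to 0.11 and 0.068 to 0.13 in the 3 comparisons.

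With 3 libraries in a group and a median standard error of 0.08, differences of the size seen here lie near the limit of the test, and a missed threshold does not show that a gene was equal in the groups.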
